A study of Homo sapiens with 10 samples.

Results

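The genes described here are 9 complement genes measured in human thyroid organoids: the components C3, C5, C1R, C1S and C8B, the soluble regulator CFI, and the membrane regulators CD46, CD55 and CD59. They were chosen by symbol with earlier results of these data known, so their share of calls is not that of an independent set. All 9 were found among the 28265 gene symbols of the count tables and passed the filter on low counts. The organoids were grown from ESIBIe003-A-6, a clone derived from the human embryonic stem cell line HES3, in which GFP replaces part of 1 NKX2-1 allele and doxycycline turns on added copies of NKX2-1 and PAX8. NKX2-1 marks thyroid and also lung and forebrain cells, so GFP alone does not single out thyroid cells. All 10 libraries came from this clone after activin A and a pulse of doxycycline, and all were made from GFP+ cells sorted from dissociated organoids of pooled wells. They fall into 5 days of culture with 2 replicates per day, which the study's methods call biological.

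The labels of days 16, 23 and 31 name c-AMP, the label of day 38 names TSH and DEX (dexamethasone), and the label of day 45 names TSH and SB. By the study's protocol, cells had basal medium up to day 16, 8-br-cAMP until day 30, and recombinant human TSH with dexamethasone after it, with the TGFβ receptor inhibitor SB431542 added last. The libraries of day 16 were therefore taken before or at the start of the c-AMP that their label names, those of day 31 just after the protocol had replaced the c-AMP that theirs names, and the label of day 45 does not name the dexamethasone that the protocol gives. Days 16, 23 and 31 carry the same medium label, although the protocol's medium changed at the first and just before the last of them. From day 31 to 38 and from day 38 to 45 the day and the labelled medium changed together, and their parts in a difference cannot be told apart. Each p-value below rests on the spread between replicates of 1 clone, pooled over the days in the fit and shared in part across genes.

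Complement is a set of plasma and membrane proteins that tag and lyse targets. The proteases C1R and C1S start the classical pathway, C3 is the central protein on which all routes converge, and cleavage of C5 starts the terminal pathway, in which C6, C7, the C8 chains and C9 assemble into a membrane pore. CFI cuts the active fragments of C3 and C4 with the help of cofactors such as CD46, while CD55 breaks up the convertases and CD59 blocks the last step of the pore. The liver makes most of the circulating components, and most nucleated cells carry the membrane regulators.

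Total counts per library ran from 7247268 in day 45 replicate 1 to 10333933 in day 38 replicate 1. Levels are given as CPM (counts scaled by library total and TMM factor), errors are SD with n = 2 per day, and 3 counts in a library, taken as the detection floor, equalled 0.307 to 0.436 CPM. Changes between days were tested with edgeR (quasi-likelihood), p-values were adjusted by Benjamini-Hochberg across all 21014 genes that passed the filter, and a gene was called at an adjusted p under 0.05. The libraries held thyroid markers, and the thyroglobulin gene TG went from 11.2 CPM on day 16 to 7744 CPM on day 45. TG, TSHR and HHEX were called higher on day 45 than on day 16 and NKX2-1, PAX8 and FOXE1 lower, FOXE1 going from 764 to 211 CPM. The libraries also held fibroblast, hepatocyte and leukocyte markers, described further below. In bulk RNA of this kind, fewer cells of a type and less RNA per cell cannot be told apart.

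Over the 5 days, 8 of the 9 genes passed the edgeR test over all days, against 36.3% of all genes tested, and CD46 was the exception. The widest movements were those of C8B, CFI, C3 and C5. C3 rose 43.7-fold from day 16 to day 45, C5 fell 30.5-fold, and C8B was present on days 23 and 31 and at or under the floor from day 38. Of the regulators, CFI rose by day 23 and was highest on day 31 (65.5-fold above day 16 in mean CPM, where day 16 had 0 and 18 counts), CD55 fell and returned, CD59 was 1.56-fold higher on day 45 than on day 16, and CD46 stayed between 264 and 351 CPM in every library.

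**Figure D1:**
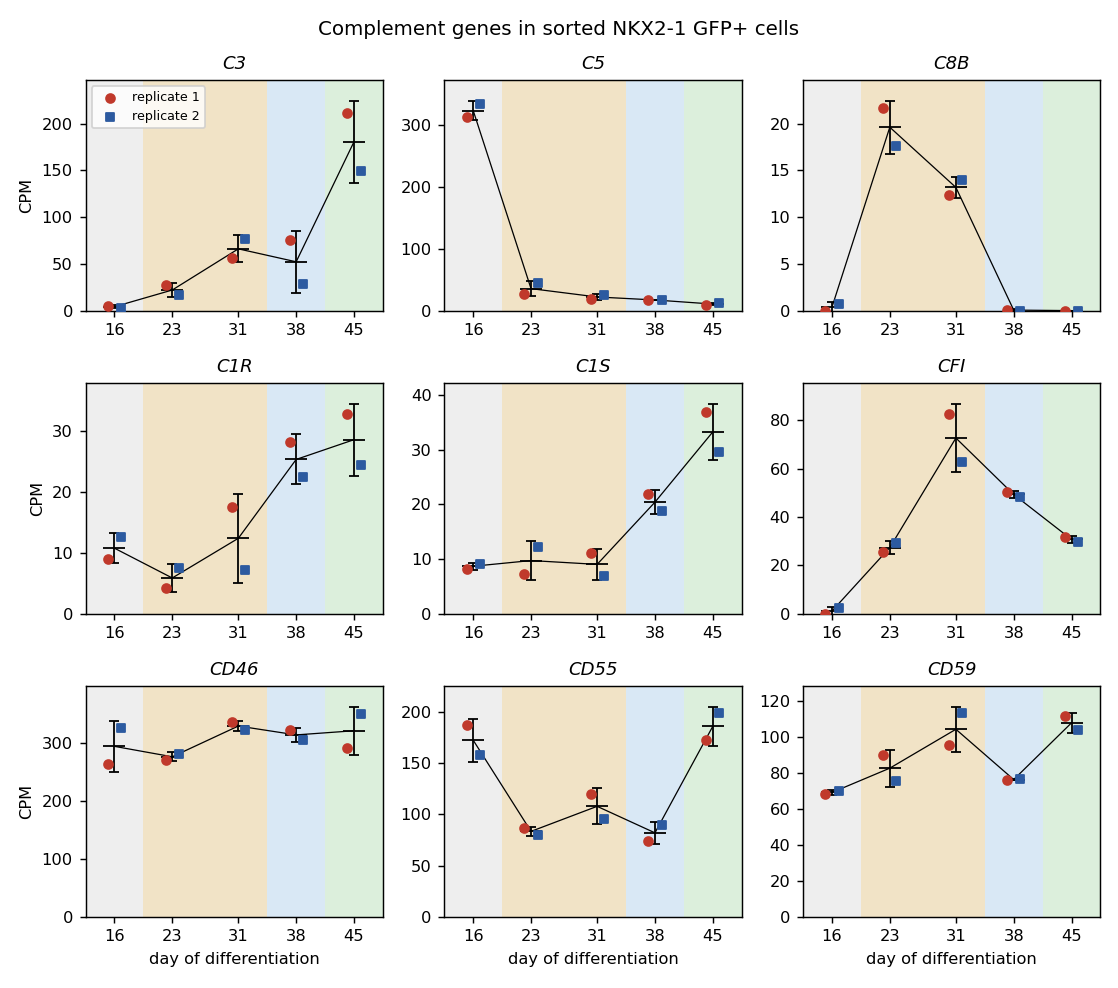
Level of each complement gene (CPM, linear axis from 0) against day of differentiation. Circles and squares are replicates 1 and 2, the bars are the mean ± SD, and shading separates day 16, days 23 and 31, day 38 and day 45. C5 falls from 324 to 35.6 CPM in the first week while C3 climbs to 181 CPM on day 45, and C8B is seen on days 23 and 31.

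From day 16 to day 23, 5 of the 9 genes were called, against 10.9% of all genes (5.60% higher and 5.33% lower). C3, C8B and CFI rose, and C5 and CD55 fell. On day 31 compared with day 23, C3 and CFI rose (2 of 9, against 2.25% of all genes, 1.58% higher and 0.666% lower). DESeq2 called 0 of the 9 there, against 2.78% of all genes and with 6 at an unadjusted p under 0.05, and edgeR without day 23 replicate 2 called 0, against 1.28% and with 3. From day 31, labelled c-AMP, to day 38, labelled TSH and DEX, 2 of 9 were called against 15.0% of all genes: C1S rose (8.80% of all genes did) and C8B fell (6.23%). With only the 4 libraries compared, 6 of 9 were called in this interval, against 20.9% of all genes. Between days 38 and 45, 4 of 9 were called against 11.2%: C3, CD55 and CD59 rose (4.85% of all genes did) and C5 fell (6.35%). Day 45 compared with day 16 gave 6 of 9 against 24.6%, with C3, C1R, C1S, CFI and CD59 higher (12.9% of all genes) and C5 lower (11.7%). The median log2 fold change of the 9 genes was 0.16, 0.33, -0.36 and 0.17 in the successive weeks and 0.64 over the whole course, while the median of all genes lay between -0.02 and 0.00. Leaving out C8B, which was at or under the floor in every library of days 38 and 45 and in 1 of the 2 libraries of day 16, the last 2 of these medians were 0.34 and 1.02 over 8 genes.

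**Figure D2:**
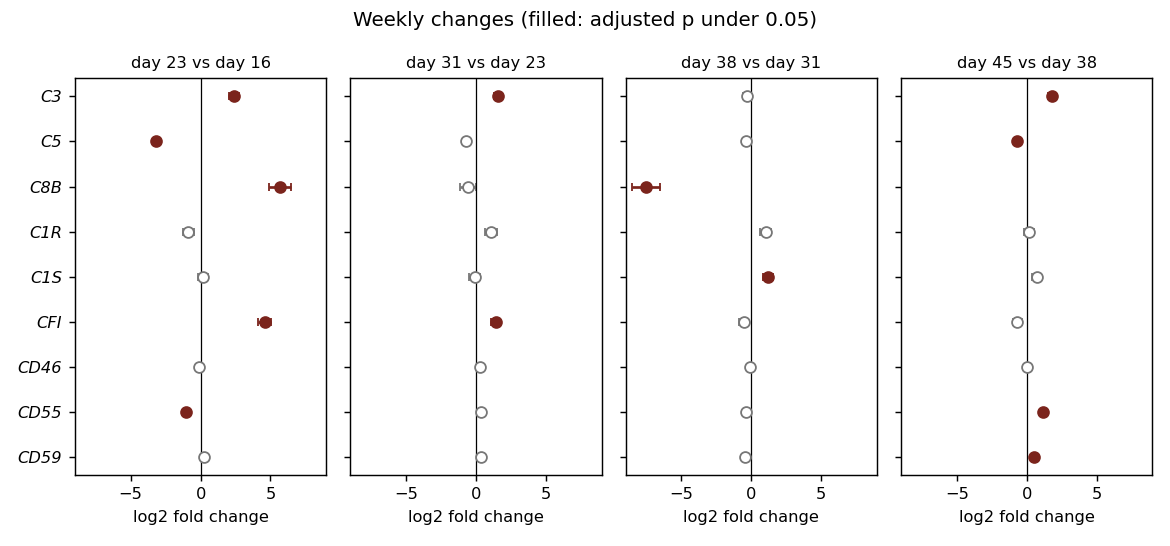
Log2 fold change of each complement gene in each successive pair of days, with its approximate SE. Filled points passed an adjusted p of 0.05, and C8B is left out of the last panel because both days were at or under the floor. The widest movements are C8B (5.66, then -7.55), CFI (4.59) and C5 (-3.19), while CD46 stays near 0 in all 4 panels.

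C3, the protein on which all complement routes converge, lies at chr19:6677704-6730562 on the minus strand (GRCh38, as for all positions here), and a non-coding gene on the same strand shares 1357 bases of its exons. It was low at first, with 5.20 and 3.08 CPM on day 16. It reached 27.4 and 16.7 CPM on day 23 and 55.8 and 76.4 CPM on day 31. Day 38 gave 75.5 and 29.0 CPM, and day 45 gave 212 and 150 CPM. The pairs of neighbouring days did not overlap except those of days 31 and 38, since replicate 1 of day 38 was as high as day 31 and replicate 2 was well below it. C3 rose 5.32-fold from day 16 to day 23 (log2 fold change 2.41 ± 0.35 SE, edgeR adjusted p = 6.5e-06). It rose again by day 31 (1.58 ± 0.29, adjusted p = 0.000722), a call lost with DESeq2 (adjusted p = 0.103), without day 23 replicate 2 (1.27, adjusted p = 0.0563) and without day 31 replicate 2 (1.33, adjusted p = 0.0523). Between days 31 and 38 the estimate was -0.34 ± 0.27 (adjusted p = 0.483). That estimate rested on the split pair of day 38: without replicate 1 it was -1.19 (adjusted p = 0.00348), and without replicate 2 it was 0.19. The last week brought a further 3.46-fold rise (1.79 ± 0.28, adjusted p = 1.5e-05), whose size also rested on day 38: it was 2.64 without replicate 1 and 1.26 without replicate 2, called in both. Over the whole course the log2 fold change was 5.45 ± 0.35 (adjusted p = 1.8e-14), and 5.11 to 5.86 with any 1 library left out.

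C5, whose cleavage opens the terminal pathway and frees the anaphylatoxin C5a, lies at chr9:120932987-121075195 on the minus strand and went the other way. It stood at 313 and 335 CPM on day 16 and at 26.6 and 44.6 CPM on day 23. Thereafter it was 19.1 and 25.0 CPM on day 31, 16.7 and 17.7 CPM on day 38, and 9.44 and 11.8 CPM on day 45. The pairs of no neighbouring days overlapped, so each day was below the day before it. The first week held most of the fall, 9.10-fold (log2 fold change -3.19 ± 0.21, edgeR adjusted p = 1.4e-13). The following 2 intervals gave -0.69 ± 0.21 (adjusted p = 0.0728) and -0.36 ± 0.21 (adjusted p = 0.311), the former called in 3 of 17 alternatives (no filter, -0.70, adjusted p = 0.0169; replicate block, -0.67, adjusted p = 0.0200; without day 23 replicate 1, -1.02, adjusted p = 0.00951). It shrank to -0.27 without day 23 replicate 2 (adjusted p = 0.806). The last week gave -0.69 ± 0.23 (adjusted p = 0.0459), a call lost with DESeq2 (adjusted p = 0.0745), with scaling by library size alone (0.0718) or upper-quartile factors (0.0725), with filterByExpr (0.0585), with only the 4 libraries compared (0.189) and without any 1 of the 4 libraries compared (adjusted p 0.0609 to 0.271). Day 45 against day 16 gave -4.92 ± 0.23 (adjusted p = 3.3e-18).

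An alternative first exon of C5, outside its canonical transcript, overlaps 408 exonic bases of CNTRL, a centrosomal gene on the opposite strand. The strand setting of the counting is not given in the sources used here, so reads from this stretch cannot be assigned to one of them. CNTRL went from 141 ± 17.6 CPM on day 16 to 131 ± 5.97 CPM on day 23 and 54.0 ± 0.399 CPM on day 45, and the part of shared reads in the counts of C5 was not tested.

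C3 and C5 exchanged places in the order of levels. Per kb of canonical transcript, the scale on which levels of different genes are set side by side here, C5 stood at 59.3 and C3 at 0.791 CPM per kb on day 16. On day 45 C3 stood at 34.5 and C5 at 1.94 CPM per kb. In both pairs of replicates on the first and last days the order was the same.

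C8B encodes the beta chain of C8, which with the alpha and gamma chains (C8A and C8G) joins C5b, C6 and C7 in the terminal complex. Its gene is at chr1:56929207-56974383 on the minus strand, with 108 exonic bases shared with an antisense RNA. C8B was counted 0 and 6 times on day 16. Day 23 held 195 and 154 counts (21.6 and 17.6 CPM) and day 31 held 121 and 120 counts (12.4 and 14.0 CPM). It was counted 1 and 0 times on day 38 and not at all on day 45, which allows up to 3 counts per library. The 4 libraries of days 23 and 31 were high and the other 6 were at 6 counts or fewer, with no overlap between them. The rise to day 23 was 53.1-fold in mean CPM, with a counting interval of 23.8 to 144 (log2 fold change 5.66 ± 0.80, edgeR adjusted p = 4.2e-06). Without 1 library the log2 value ran from 4.72 to 10.4, the upper one against a day 16 left with 0 counts. Days 23 and 31 differed by -0.57 ± 0.58 (adjusted p = 0.789). Day 38 held 1 count in all, under the floor of 3 counts per library, so the size of the fall from day 31 is uncertain. In mean CPM the fall was 244-fold, with a counting interval of 41.6 to 9289 that takes no account of the floor (log2 fold change -7.55 ± 0.99, edgeR adjusted p = 5.9e-07). It was -6.75 without day 38 replicate 2 and -9.81 without day 38 replicate 1, the latter against 0 counts. Day 45 was at least 34.5-fold lower than day 31, taking the floor of 3 counts per library. These intervals cover counting error only.

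CFI encodes factor I, the protease that inactivates C3b and C4b, at chr4:109731008-109802150 on the minus strand. A readthrough gene on the same strand shares 1562 exonic bases with it, so its counts may understate it. CFI was counted 0 and 18 times on day 16, the latter 2.22 CPM. It reached 25.5 and 29.2 CPM on day 23 and 82.6 and 62.6 CPM on day 31, then 50.3 and 48.2 CPM on day 38 and 31.6 and 29.7 CPM on day 45. CFI was highest on day 31, and the pairs of no neighbouring days overlapped. The first rise was 24.7-fold in mean CPM (log2 fold change 4.59 ± 0.45, edgeR adjusted p = 2.4e-09; 3.63 to 10.9 with 1 library left out, the upper value against 0 counts). The second was 1.41 ± 0.32 (adjusted p = 0.00748), a call lost with DESeq2 (adjusted p = 0.604), without day 23 replicate 1 (1.32, adjusted p = 0.109), without day 23 replicate 2 (1.51, adjusted p = 0.0538) and without day 31 replicate 1 (1.19, adjusted p = 0.242). The later steps gave -0.56 ± 0.31 (adjusted p = 0.257) and -0.68 ± 0.31 (adjusted p = 0.181). With only the 4 libraries compared both were called (adjusted p = 0.0159 and 0.0225), and the second also without either library of day 16 (adjusted p 0.0270 to 0.0299). Day 45 remained above day 16 by 4.76 ± 0.45 (adjusted p = 1.6e-10), with 3.77 without day 16 replicate 1 and 11.1 without replicate 2, the latter against 0 counts.

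The promoters of the 3 genes with the widest first-week changes are printed to show what stands before C5, which fell, and before C8B and CFI, which rose. Each is the 250 bases before the RefSeq start (GRCh38.p14), 5′ to 3′ on the gene's strand, and capitals mark matches to the motifs named after them. The table of promoters held 7 of the 9 genes, without C3 and C1S.
C5 promoter, chr9:121050276-121050525, minus strand: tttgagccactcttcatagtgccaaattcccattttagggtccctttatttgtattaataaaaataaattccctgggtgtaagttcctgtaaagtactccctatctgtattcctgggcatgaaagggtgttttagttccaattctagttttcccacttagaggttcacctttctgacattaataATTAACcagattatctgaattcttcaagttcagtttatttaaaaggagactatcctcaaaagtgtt
C8B promoter, chr1:56966016-56966265, minus strand: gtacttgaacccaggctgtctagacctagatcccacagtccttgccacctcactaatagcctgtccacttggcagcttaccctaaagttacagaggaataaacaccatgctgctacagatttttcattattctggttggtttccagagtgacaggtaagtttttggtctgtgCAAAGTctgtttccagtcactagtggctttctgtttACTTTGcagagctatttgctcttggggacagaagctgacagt
CFI promoter, chr4:109802000-109802249, minus strand: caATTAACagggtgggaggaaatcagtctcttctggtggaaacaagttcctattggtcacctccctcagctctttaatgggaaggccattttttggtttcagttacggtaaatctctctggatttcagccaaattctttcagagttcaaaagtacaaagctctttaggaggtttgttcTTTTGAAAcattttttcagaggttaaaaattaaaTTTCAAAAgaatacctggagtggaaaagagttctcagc
Motifs were searched as letters on both strands and were chosen after the values had been seen: the core promoter letters TATAAA, the cAMP response element with letters TGACGTCA, the C/EBP letters TTNNGNAA, the letters GTTAAT from the site of the liver factor HNF1, and the HNF4 letters CAAAGT. CFI held the HNF1 letters 248 to 243 bases before its start and the C/EBP letters at 72 to 65 and 38 to 31. C8B held the HNF4 letters at 78 to 73 and 42 to 37, and C5 held the HNF1 letters at 66 to 61. Of all 34788 RefSeq windows of this length, 6.26% held the HNF1 letters, 10.3% the HNF4 letters and 33.2% the C/EBP letters. Beyond these 3 genes, C1R held the C/EBP letters in 2 places, and the windows of CD46, CD55 and CD59 held none of the 5 motifs. The full cAMP element, found in 1.64% of windows, was in none of the 7, nor were the core promoter letters (10.8%). A match describes the letters and is not a measured site.

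C1R and C1S encode the paired proteases of the C1 complex and lie near each other on chromosome 12 (GRCh38, C1R at chr12:7080214-7092540 on the minus strand and C1S at chr12:6988259-7071032 on the plus strand). C1R gave 9.0 and 12.6 CPM on day 16, 4.21 and 7.55 CPM on day 23, 17.6 and 7.21 CPM on day 31, 28.3 and 22.5 CPM on day 38, and 32.8 and 24.5 CPM on day 45. C1S gave 8.24 and 9.11 CPM, then 7.20 and 12.2 CPM, 11.1 and 6.98 CPM, 21.9 and 18.9 CPM, and 36.9 and 29.6 CPM on the same days. Both were at low levels up to day 31 and on days 38 and 45 above every library of days 16, 23 and 31, although the C1R libraries of days 38 and 45 overlapped. For C1R no weekly step was called, the nearest being 1.03 ± 0.38 from day 31 to day 38 (edgeR adjusted p = 0.0682). That step was called in 6 of 17 alternatives, namely without day 31 replicate 1 (1.80, adjusted p = 0.0137), with no filter, with the replicate block, with only the 4 libraries compared and without either library of day 16 (adjusted p 0.0189 to 0.0460 for these 5), and it was 0.52 without day 31 replicate 2 (adjusted p = 0.496). Its day 45 was 2.66-fold above day 16 (1.41 ± 0.39, adjusted p = 0.00637), which was not called without day 16 replicate 1 (1.18, adjusted p = 0.0674) or without day 45 replicate 1 (1.18, adjusted p = 0.0688).

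C1S rose from day 31 to day 38 by 1.17 ± 0.36 (edgeR adjusted p = 0.0228). That call was lost with scaling by library size alone (0.95, adjusted p = 0.0708), without day 31 replicate 2 (0.88, adjusted p = 0.219), without day 38 replicate 1 (1.06, adjusted p = 0.185) and without day 38 replicate 2 (1.28, adjusted p = 0.0737). Scaling by library size also moved the median of all genes in this comparison to -0.20. The step from day 38 to day 45 was 0.70 (edgeR adjusted p = 0.231). It was called with only the 4 libraries compared (0.74, adjusted p = 0.0314). Day 45 was 3.83-fold above day 16 (1.93 ± 0.37, adjusted p = 0.000104). In the annotation, C1R shares 672 exonic bases with its neighbour C1RL on the same strand, and C1S shares 229 with another gene, so part of their reads may have been left uncounted or split.

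CD46, the membrane cofactor with which CFI works, lies at chr1:207752037-207795513 on the plus strand and was the steadiest of the 9. It gave 264 and 326 CPM on day 16, 271 and 282 CPM on day 23, 336 and 324 CPM on day 31, 323 and 306 CPM on day 38, and 292 and 351 CPM on day 45. The mean of the highest day exceeded that of the lowest 1.19-fold, the replicates of day 16 alone spanned most of that range, and the test over all days gave an adjusted p of 0.435 by edgeR. The largest weekly log2 change was 0.25 ± 0.13. Its exons overlap 797 bases of an antisense RNA host gene, MIR29B2CHG.

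CD55, which speeds the decay of the C3 and C5 convertases, lies on the same arm at chr1:207321519-207386804, also on the plus strand. It gave 187 and 158 CPM on day 16 and fell to 86.7 and 80.3 CPM on day 23. It stood at 120 and 95.4 CPM on day 31 and at 74.3 and 89.8 CPM on day 38, and came back to 173 and 200 CPM on day 45. The first and last days overlapped each other and lay above every library in between. The fall was -1.05 ± 0.16 (edgeR adjusted p = 1.1e-05) and the return 1.18 ± 0.16, or 2.27-fold (adjusted p = 1.3e-06). The steps between gave 0.37 ± 0.16 (adjusted p = 0.320) and -0.40 ± 0.16 (adjusted p = 0.0914), the latter called in 4 of 17 alternatives: with scaling by library size alone (-0.61, adjusted p = 0.00686), with only the 4 libraries compared (adjusted p = 0.0485) and without either library of day 16 (adjusted p 0.0439 to 0.0491). Day 45 against day 16 gave 0.11 ± 0.16 (adjusted p = 0.677).

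CD59, which keeps C9 from completing the pore, lies at chr11:33703010-33736479 on the minus strand and shares 629 exonic bases with another gene model on the same strand. It gave 68.1 and 70.2 CPM on day 16, 89.9 and 75.5 CPM on day 23, 95.5 and 113 CPM on day 31, 76.0 and 76.6 CPM on day 38, and 112 and 104 CPM on day 45. Days 31 and 45 overlapped and lay above all libraries of the other days. The last week's rise of 1.41-fold (0.50 ± 0.16, edgeR adjusted p = 0.0433) was at the edge of the threshold and was lost in 8 of 17 alternatives. These were the fit with no filter (adjusted p = 0.0540), those without any 1 of the 4 libraries compared (0.0853 to 0.229) and those without day 23 replicate 1 or either library of day 31 (0.0511 to 0.0530). The step before it, -0.45 ± 0.16 (adjusted p = 0.0607), was called in 6 of 17 alternatives: with DESeq2 (-0.48, adjusted p = 0.0297), with upper-quartile factors (-0.50, adjusted p = 0.0323), with library size alone (-0.67, adjusted p = 0.00348), with only the 4 libraries compared (adjusted p = 0.0202) and without either library of day 16 (adjusted p 0.0282 to 0.0329). The difference between day 45 and day 16 was 0.64 ± 0.17 (adjusted p = 0.00331).

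Set side by side per kb of canonical transcript, the membrane regulators CD46 and CD55 had the highest means of the 9 genes on every day. In day 16 replicate 2, however, C5 stood at 61.4 and CD55 at 60.9 CPM per kb. Over the day means CD46 stood at 83.3 to 99.3 and CD55 at 31.7 to 71.8 CPM per kb. With lengths taken over all annotated exons, C5 came before both on day 16, and CFI came before CD55 on days 31 and 38. Per kb of canonical transcript, CFI ranked 3 on days 23, 31 and 38, with 13.8, 36.7 and 24.9 CPM per kb, and C3 ranked 3 on day 45. Over all annotated exons CFI ranked 4 on day 23, after CD59. C8B ranked 5 on day 23 with 9.61 CPM per kb, ahead of C5 with 6.51.

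The rest of the pathway was read from a list of 48 other complement genes, of which 32 passed the filter on low counts. Over the 5 days 6 of these 32 were called (18.8%, against 36.3% of all genes): C6, C7, SERPING1, CLU, ITGAM and CD93. By role, edgeR called 2 of 5 terminal components, 2 of 8 regulators and 2 of 7 receptors, and DESeq2, which called 38.1% of all genes, called 3 (C8A as well), 2 and 3 (C5AR1 as well). Of the 9 classical and lectin pathway genes tested, edgeR called 0 and DESeq2 1, COLEC11. By either tool 3 of them had an unadjusted p under 0.05. Of the 3 alternative-pathway genes edgeR called 0 and DESeq2 1, CFP (1 at an unadjusted p under 0.05 by either). DESeq2 gave no adjusted p for C1QC, FCN1, CFB and the receptor gene C5AR2. In the successive comparisons the list had 1 gene higher (SERPING1) and 1 lower (MASP1), then 2 higher (C7 and CLU), then 1 higher (C7) and 2 lower (SERPING1 and CLU), then 3 higher (CFP, C7 and ITGAM) and 1 lower (C1RL). These were 6.25%, 6.25%, 9.38% and 12.5% of the 32, against 10.9%, 2.25%, 15.0% and 11.2% of all genes. Day 45 against day 16 had 5 higher, namely COLEC11, C7, CLU, ITGAM and CD93 (15.6%, against 24.6% of all genes). The calls of MASP1, a lectin-pathway protease, of the C1R-like gene C1RL, of the alternative-pathway stabiliser CFP and of the collectin COLEC11 were each lost without any 1 of the 4 libraries compared (adjusted p 0.0519 to 0.265), and these genes were named after their values were seen. C4A, C4B and FCN2 had no count in any library, C4A and C4B being near-identical copies that counting could leave unassigned. CFB, which forms the alternative C3 convertase, did not exceed 9 counts, and C2 had 15 counts in 1 library of day 45 and at most 1 elsewhere. The list's median log2 fold change over the genes above the floor was 0.50 (18 genes), 0.26 (18), -0.38 (15) and 0.66 (20) in the successive weeks and 0.03 (21) over the whole course. Over all 32 genes, with those at or under the floor, whose fitted values depend on the prior count, it was 0.34, 0, -0.36 and 1.55 and, over the whole course, 1.31.

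In the terminal pathway C7, which anchors the growing complex in the membrane, was low while C8B was high. Its mean was 3.32 ± 1.04 CPM on day 16, 1.47 ± 0.351 on day 23 and 4.68 ± 1.12 on day 31, then 60.9 ± 6.36 on day 38 and 106 ± 20.5 on day 45. The rise from day 31 to day 38 was 13-fold (log2 fold change 3.70 ± 0.29, edgeR adjusted p = 6.5e-12, called in all 17 alternatives), in the same interval in which C8B fell. The smaller rises before and after it were called as well (1.66, adjusted p = 0.00844, and 0.81, adjusted p = 0.0268). The earlier was lost without day 23 replicate 1 (1.43, adjusted p = 0.145) or day 31 replicate 2 (1.39, adjusted p = 0.121) and with only the 4 libraries compared (adjusted p = 0.507). The later was lost without day 38 replicate 1 (0.92, adjusted p = 0.119), day 38 replicate 2 (0.70, adjusted p = 0.303) or day 45 replicate 1 (0.60, adjusted p = 0.328). C6 had no count before day 38, where it had 26 and 13, followed by 7 and 10 on day 45. C8A, the partner chain of C8B, was sparse, with 21 and 26 counts on day 23, 4 and 15 on day 31 and at most 3 in the other libraries. Over all days edgeR did not call it (adjusted p = 0.125) and DESeq2 did (adjusted p = 0.0473).

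**Figure D3:**
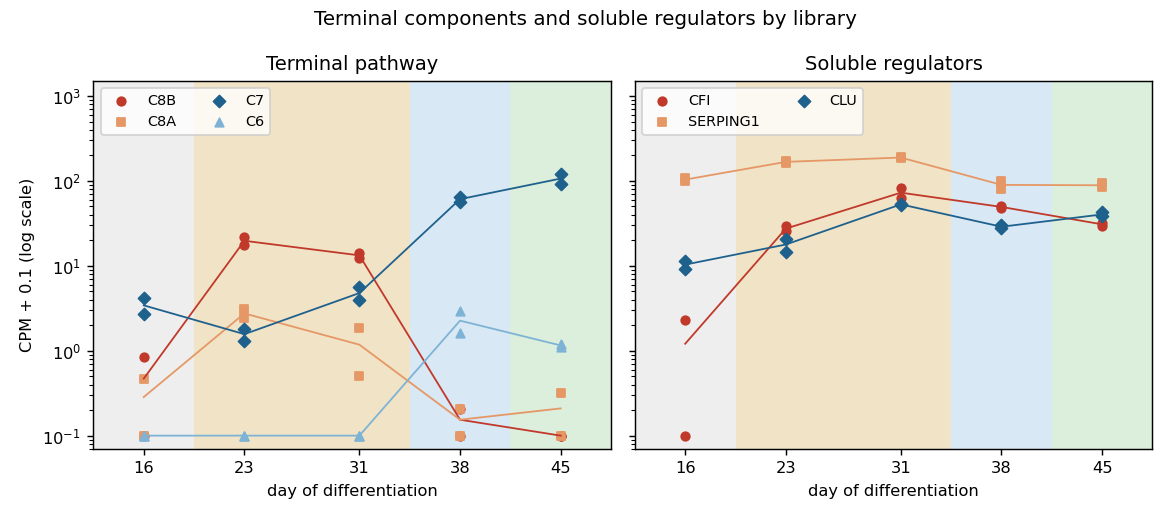
Level of terminal-pathway genes (left) and soluble regulators (right) by day, as CPM plus 0.1 on a log axis. Points are libraries and lines join the day means. C8B drops to the bottom of the plot on day 38, where C7 jumps from 4.68 to 60.9 CPM.

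Among the soluble regulators, SERPING1, the C1 inhibitor, had the highest level of those shown, with 48.5 to 103 CPM per kb over the day means. It rose from 104 ± 5.50 CPM on day 16 to 167 ± 5.18 on day 23 (log2 fold change 0.69 ± 0.15, edgeR adjusted p = 0.00138), stood at 188 ± 1.34 on day 31 and fell to 89.7 ± 14.2 on day 38 (-1.07 ± 0.15, adjusted p = 1.6e-06), and stood at 88.7 ± 7.34 on day 45. CLU, or clusterin, which blocks insertion of the terminal complex, rose from 17.7 ± 4.37 CPM on day 23 to 52.8 ± 1.01 on day 31 (1.58 ± 0.26, adjusted p = 0.000252). It then fell to 28.8 ± 1.80 CPM (-0.88 ± 0.26, adjusted p = 0.0158), a call lost without any 1 of the 4 libraries compared (adjusted p 0.0682 to 0.170). SERPING1, CLU and CFI thus had their highest means on day 31.

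Of the receptors, ITGAM, the alpha chain of complement receptor 3 and a myeloid gene, had at most 2 counts in each library before day 45 and 162 and 88 counts there (6.51 ± 1.17 against day 38, edgeR adjusted p = 0.000154, and 5.73 and not called without day 45 replicate 1, adjusted p = 0.0866). CD93, found on endothelial and myeloid cells, had no count on days 16 and 23, 25 and 4 counts on day 31, 16 and 5 on day 38, and 40 and 14 on day 45 (against day 16, edgeR adjusted p = 0.0131, not called without either library of day 16 or without day 45 replicate 1, adjusted p 0.0759 to 0.108). The anaphylatoxin receptor genes C3AR1 and C5AR1 were sparse, with at most 48 and 42 counts in a library. Over all days C3AR1 was called by neither tool (adjusted p = 0.305 by edgeR and 0.356 by DESeq2), and C5AR1, with 36 and 42 counts on day 45 and at most 10 before, was called by DESeq2 (adjusted p = 0.0206) and not by edgeR (adjusted p = 0.0569).

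Markers of other cell types moved in the same libraries, and their part in the changes of the complement genes was not tested. The 6 hepatocyte markers summed to 2.28 and 6.77 CPM on day 16, 18.7 and 11.8 on day 23, 127 and 120 on day 31, 274 and 139 on day 38, and 467 and 381 on day 45. SERPINA1 was the most abundant of them from day 23 on, with ALB next from day 31, while HNF4A had 0 counts on day 23 and AHSG had 0 counts in both libraries of day 38. In the split pair of day 38, replicate 1 was the higher in C3 (699 against 249 counts), SERPINA1 (1953 against 875) and ALB (472 against 216). HNF4A had 93 and 81 counts there, CYP3A4 10 and 17, and APOA1 13 and 9. SERPINA1 was called higher on day 38 than on day 31 (211 and 102 against 79.6 and 76.1 CPM). C3 was not called in that comparison. Not all 6 markers followed the sum: APOA1 and AHSG had their highest means on day 31 (7.25 and 5.04 CPM) and were called lower on day 38 (1.23 and 0 CPM).

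The 6 fibroblast markers, led by COL3A1, summed to 663 and 925 CPM on day 16, 1397 and 1345 on day 23, 1134 and 1411 on day 31, 3182 and 3342 on day 38, and 3494 and 2815 on day 45. The rise of the sum from day 31 to day 38 lay in the interval in which C7 and C1S rose. In that interval COL3A1, COL1A2 and PDGFRA were called higher and LUM lower (98.7 to 42.0 CPM), and DCN went from 47.8 to 50.8 CPM. PRRX1 was lower on day 45 than on day 16, with 8.43 against 39.1 CPM. The sum of the 5 cardiovascular markers rose in the same interval, from 32.3 and 17.7 CPM on day 31 to 149 and 146 on day 38. Of the 5, 4 were called higher, against 8.80% of all genes, and MYH6 was the most abundant. On day 45 the sum stood at 126 and 146 CPM. The sum of the 4 goblet cell markers went from 4.61 and 6.05 CPM on day 31 to 50.0 and 36.6 on day 38, with MUC5AC and MUC5B called higher, and to 105 and 56.6 on day 45, when MUC5B was called higher again and MUC5AC lower (25.8 to 1.26 CPM). The 6 leukocyte markers, led by CD68, were highest on day 45, when ITGAM appeared, with 46.9 and 47.8 CPM against 5.94 to 29.9 before. Of these, TYROBP had 4 counts in 1 library of day 45 and none in the other 9, and PTPRC was highest on day 16, with 64 and 17 counts, and had at most 6 counts in each later library. The 5 endothelial markers summed to at most 29.2 CPM in any library, and the 4 epithelial markers to 1305 to 2209 CPM. The endothelial TEK was called higher on day 23 than on day 16 and lower on day 38 than on day 31. Its mean was highest on day 31, at 21.5 CPM, and the other 4 endothelial markers were not called in either comparison. The epithelial KRT8 and KRT18 were called lower on day 38 than on day 31, and the other 2 were not called. The 4 airway basal cell markers summed to 6.52 to 23.5 CPM per library up to day 31 and to 55.0 and 42.8 CPM on day 45. KRT5 gave 36.9 and 28.2 CPM of the day 45 sums. On day 45 against day 16, KRT5 and KRT14 were called higher, and TP63 and NGFR were not called. TP63 was called lower on day 23 than on day 16.

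**Figure D4:**
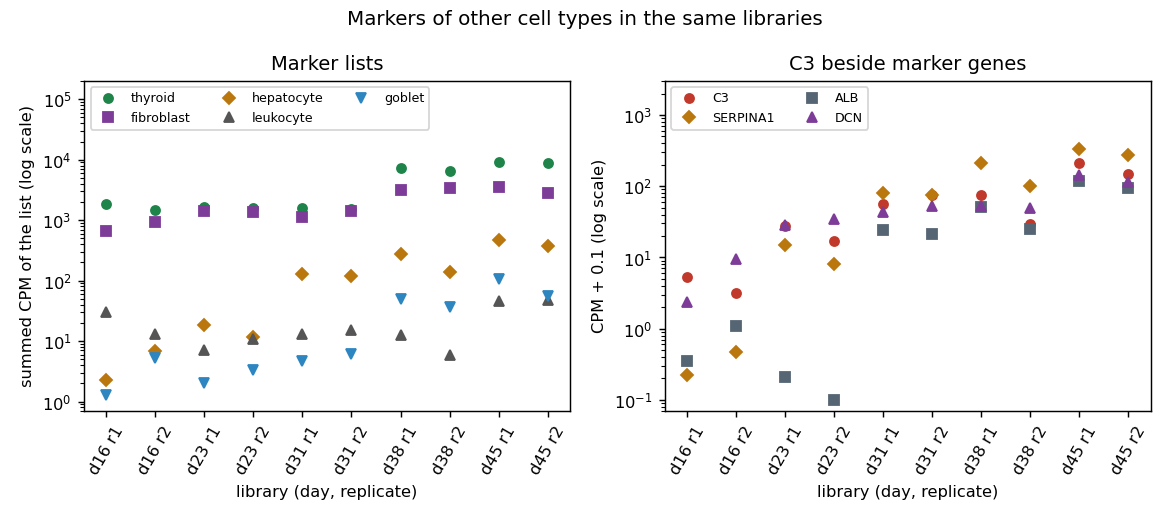
Summed CPM of marker lists (left) and CPM plus 0.1 of C3, SERPINA1, ALB and DCN (right) in each of the 10 libraries, on log axes, with d and r giving day and replicate. C3, SERPINA1 and ALB are each lower in replicate 2 than in replicate 1 of day 38, and the hepatocyte sum rises from 2.28 CPM in the first library to 467 CPM on day 45.

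Genes with the most similar course to each complement gene are given as a description, by Pearson's r of log2 CPM over the 10 libraries among 13106 genes, whose points share their libraries and days. C3 was most like CD63 (r = 0.980), a tetraspanin of endosomes and exosomes that went from 96.7 to 156 CPM, followed by TAGLN2 (0.976) and DUSP8 (0.973). C5 was most like GOLIM4 (0.989), a Golgi membrane protein that went from 453 to 115 CPM, then BBIP1 (0.986) and DTNB (0.985). C8B was most like CCAR1 (0.990), PCDH19 (0.985) and ARHGEF11 (0.983), although CCAR1 moved only between 225 and 341 CPM. CFI was most like DPYD (0.974), the enzyme that degrades pyrimidines, GAS7 (0.971) and FOXA1 (0.970), an endoderm transcription factor that went from 0.308 CPM on day 16 to 22.6 on day 31. C1R was nearest to COX7A2, SYNE3 and AOC1 (0.963 to 0.962) and C1S to BTG3 (0.977), SLC35E1 (0.972) and PDE4A (0.972). CD55 was nearest to SNX32 (0.971), NR4A3 (0.960) and RNF19B (0.956), and CD59 to PTRH2 (0.927), ZBTB11 (0.914) and FASN (0.910). NR4A3, an immediate early gene of cAMP signalling, had means of 205 CPM on day 16 and 267 CPM on day 45. Its means on days 23, 31 and 38 were 26.7, 40.6 and 33.1 CPM.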

How the data were processed

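RNA of sorted GFP+ cells was made into sequencing libraries. Whether molecular identifiers were used to separate PCR copies of a molecule is not given in the sources used here. Per the submitters' processing notes and the study's methods, reads were trimmed with Trimmomatic, aligned to GRCh38 with HISAT2 and counted per gene with HTSeq. Versions and the strand setting are not given in the sources used here. The deposited values are whole-number counts per gene symbol, 1 table per library, without normalization by the authors.

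The members and lists were chosen with earlier results of these data known. Counts were fitted in R 4.3.3 with edgeR 4.0.16 (quasi-likelihood test, TMM factors of 0.896 to 1.07, 1 mean per day over all 10 libraries, 5 residual degrees of freedom), for genes that reached 5 counts in 2 or more libraries. SE was taken as the absolute log2 fold change over the square root of F. The fit was also tested on simulated data, the outcome of which is not reported here. Replicates of a day differed by 8.38 to 13.7 times the chi-square expected from sampling noise per degree of freedom. That measure cannot tell separate cultures from separate libraries of the same RNA. Each library was counted as a sample because the study's methods call the replicates biological. Gene positions, lengths and overlaps are from GENCODE 44, and promoters from RefSeq.

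All 9 members are named with every library's value. Of the list of other complement genes, those called over any day are named. A further complement gene and a further marker gene are not reported here. MASP1, CFP, C1RL, COLEC11, C2, CFB, C8A, C3AR1, C5AR1 and genes at 0 were chosen after their values were seen. For each member called, the 3 genes with the highest r among tested genes with a mean of at least 5 CPM are named. Alternatives were DESeq2 1.42.0, library size alone, upper-quartile factors, no filter, filterByExpr, replicate number as a block, the 4 compared libraries alone, and leaving out each library. For the other complement genes named with a fold change or an adjusted p they were added after seeing the data.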

Additional observations from a re-analysis of the deposited data

How the results depend on the processing

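Fold changes were recomputed for the 9 complement genes and for the called comparisons of 9 others. Of these, 934 kept their side of the threshold without reversing, 64 lost their call, 28 gained one and 11 reversed. All 144 recomputed any-day tests of the 9 complement genes kept their side of the threshold. Among those that did not reverse, C8B on day 45 against 16 and on day 45 against 38 reached 0 with 1 library left out. The 11 reversals were all in changes not called and all came from leaving out 1 library. For these results, the range over the 10 libraries left out was, on day 23 against 16, -0.22 to 0.069 for CD46 (above 0 without day 16 replicate 2) and -0.27 to 0.49 for C1S (below 0 without day 23 replicate 2). On day 31 against 23 it was -0.48 to 0.33 for C1S, above 0 without day 23 replicate 2 (0.33) or day 31 replicate 2 (0.18). On day 38 against 31 it was -1.19 to 0.19 for C3, above 0 without day 38 replicate 2. On day 45 against 38 it was -0.10 to 0.16 for CD46, below 0 without day 38 replicate 2 (-0.0042) or day 45 replicate 2 (-0.10), and -0.054 to 0.37 for C1R, below 0 without day 45 replicate 1. On day 45 against 16 it was -0.028 to 0.29 for CD46, below 0 without day 16 replicate 1 (-0.028) or day 45 replicate 2 (-0.011), and -0.0094 to 0.23 for CD55, below 0 without day 16 replicate 2.

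With 1 library left out, all genes called ran from 1401 to 2477 on day 23 against 16, 214 to 679 on day 31 against 23, 1818 to 3679 on day 38 against 31, 1216 to 2866 on day 45 against 38, 4073 to 5249 on day 45 against 16 and 6483 to 7885 over any day. Of the 9 complement genes, 5 stayed called in the first week and 8 over any day, while the number ran from 0 to 2 on day 31 against 23 (0 without day 23 replicate 2, 1 without either library of day 31), from 1 to 5 on day 38 against 31 (5 without either library of day 16, 1 without day 31 replicate 2 or day 38 replicate 2), from 2 to 5 on day 45 against 38 (2 without any 1 of the 4 libraries compared) and from 5 to 6 on day 45 against 16. DESeq2 called 0 of the 9 on day 31 against 23, and edgeR without day 23 replicate 2 called 0 (6 and 3 at an unadjusted p under 0.05). With only the 4 libraries compared, 743 of all genes were called on day 31 against 23, and on day 38 against 31 6 of the 9 complement genes. The cause was not tested.

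Replicate numbers are shared between days, but replicate differences of one day correlated with those of another only between r = -0.083 and 0.098, so the numbers were not taken to pair libraries. With the replicate number as a block, 2703, 678, 3472 and 2691 genes were called in the successive weeks. The block also called C5 on day 31 against 23 (-0.67, adjusted p = 0.0200) and C1R on day 38 against 31 (1.05, adjusted p = 0.0263). C8B passed the threshold on day 45 against 16 with the block, with no filter (-4.74, adjusted p = 0.0371) and without day 16 replicate 1 (-5.71, adjusted p = 0.0105), where both days were at the floor in all but 1 library. Depth limits the sparse genes: C6 and C8A had at most 26 counts in a library, so their changes rest on few reads.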
